A study of Schizosaccharomyces pombe with 4 samples.

Results

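The Sty1-Atf1 stress genes described here are 10 protein-coding genes of fission yeast, sty1, atf1, pcr1, ctt1, gpd1, hsp9, pyp2, tps1, ntp1 and fbp1, taken by identifier from the 5129 protein-coding genes of the table. They were listed for their known roles with the ratio between the genotypes in these same libraries in view, so that they count as selected on that ratio, and their ratios are given as a description with no test. Total RNA was sequenced from 2 biological replicates of a WT strain, YAM2394, and 2 of YAM2397, whose exo2 gene is deleted with kanMX4 (exo2Δ). Both are h+ strains that carry the alleles leu1-32, ura4-D18 and ade6-M210. Both strains came from a commercial supplier and were cultured in YES, a rich medium, until mid-log phase, with no stress applied. The auxotrophic alleles are shared by both groups, and each genotype is represented by 1 strain. The labels do not say how the replicate cultures were separated, and p-values measure only the spread between these libraries.

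Sty1 is the stress-activated MAP kinase of fission yeast, the counterpart of mammalian p38 and budding yeast Hog1. Osmotic, oxidative and heat stress and nutrient loss reach it through a kinase cascade that ends with Wis1, and active Sty1 enters the nucleus and acts on Atf1, a bZIP transcription factor that binds DNA with Pcr1 at cAMP response element (CRE) sequences with a TGACGT core. Exo2 is the cytoplasmic 5′–3′ exoribonuclease, called Xrn1 in budding yeast, and XUTs are the noncoding transcripts that accumulate without it.

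The density used below is the number of tags per nucleotide of a feature, normalized by the authors on sn(o)RNA levels. Summed over all features, the read counts were between 46964618 and 51019820 per library, of which mRNAs made up between 24899022 and 26817935. Reads in overlapping features count for each feature in these sums. The density of exo2 itself was 0.488 and 0.458 in WT against 0.663 and 0.636 tag/nt under the exo2Δ label, so that the deposited values do not show a loss of this gene, and the group names are those of the labels throughout. According to the study's methods, PCR and northern blotting were used to check both strains. With the sn(o)RNA normalization, the median log2 ratio of exo2Δ over WT was 1.08 over the 5079 mRNAs with at least 10 reads in all 4 libraries together (quartiles 0.64 and 1.48), and 6.97% of mRNAs had a log2 ratio below 0. sn(o)RNAs, which set the scale, took 2720801 and 2553760 reads in WT against 1883013 and 1887166 under the exo2Δ label, and the part of this in the shift of all mRNAs was not tested. Log2 ratios below are given on the sn(o)RNA scale, and where stated relative to this median.

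The CRE core is shown first because it is the DNA element of the pathway that can be read at the genes. A window of 250 nt before to 50 nt after the RefSeq transcript start (assembly ASM294v3) was searched for TGACGT on both strands, that is TGACGT or ACGTCA. It was present at 4 of the 10 genes, atf1, ctt1, gpd1 and ntp1, and in 302 of 5112 such windows of all RefSeq mRNAs (5.91%). The windows are printed 5′ to 3′ in the direction of the gene, with each match in capitals.
ctt1 (chrIII:58784-59083, - strand): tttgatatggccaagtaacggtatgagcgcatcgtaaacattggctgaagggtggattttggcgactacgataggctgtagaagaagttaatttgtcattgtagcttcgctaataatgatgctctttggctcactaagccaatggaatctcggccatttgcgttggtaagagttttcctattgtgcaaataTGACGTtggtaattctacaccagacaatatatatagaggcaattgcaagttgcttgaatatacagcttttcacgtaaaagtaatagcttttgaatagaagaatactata
gpd1 (chrII:4035316-4035615, + strand): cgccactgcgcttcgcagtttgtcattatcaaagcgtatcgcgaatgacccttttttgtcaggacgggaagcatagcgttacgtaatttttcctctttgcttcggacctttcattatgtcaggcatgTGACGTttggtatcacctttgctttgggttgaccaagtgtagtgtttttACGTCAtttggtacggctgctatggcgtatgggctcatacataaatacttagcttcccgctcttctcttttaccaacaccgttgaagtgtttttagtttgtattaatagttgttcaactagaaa
ntp1 (chrII:206331-206630, + strand): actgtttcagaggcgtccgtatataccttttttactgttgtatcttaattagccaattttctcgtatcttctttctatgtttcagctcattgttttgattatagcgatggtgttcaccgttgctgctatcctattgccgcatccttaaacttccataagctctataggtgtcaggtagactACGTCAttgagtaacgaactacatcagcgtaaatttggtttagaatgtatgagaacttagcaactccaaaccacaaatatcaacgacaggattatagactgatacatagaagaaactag
atf1 (chrII:1545967-1546266, + strand): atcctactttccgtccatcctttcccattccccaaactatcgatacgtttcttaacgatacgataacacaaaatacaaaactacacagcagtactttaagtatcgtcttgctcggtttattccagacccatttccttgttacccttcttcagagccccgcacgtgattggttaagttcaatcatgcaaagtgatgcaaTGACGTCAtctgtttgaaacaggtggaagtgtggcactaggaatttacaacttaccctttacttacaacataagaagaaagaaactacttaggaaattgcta
The match began 59 nt upstream of the start at ctt1 and 69 nt upstream at ntp1. gpd1 held 1 match on each strand, 123 and 74 nt upstream. At atf1 the matches on the 2 strands overlap in 1 palindrome that begins 52 nt upstream. In the 1500 nt before the start, matches were found at 6 of the 10 genes and at 21.4% of all RefSeq mRNAs, the additional genes being pyp2 (979 and 783 nt upstream) and fbp1 (940 nt upstream). The RefSeq starts lie between 0 and 290 nt from those of the deposited table, which counts in assembly ASM294v2. A match is a description of the letters and not evidence of binding.

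Across the 10 genes, densities in WT covered a 321-fold range. gpd1 had the highest mean density, followed by hsp9, tps1, ctt1, sty1, ntp1, pcr1, atf1, pyp2 and fbp1. Among neighbours in this order, pcr1 and atf1 overlapped between their libraries, and the other neighbours did not. In the libraries labelled exo2Δ the range was 48.6-fold and the order was different, with ctt1 below ntp1 and above only fbp1 and pyp2, which overlapped each other. The density is taken over the whole span of a gene, and that of atf1 includes an intron of 855 nt in the RefSeq annotation, so that its level per exonic nucleotide is understated. All 10 genes passed the filter on low values, with between 107 reads (fbp1 in WT replicate 2) and 38423 reads (gpd1 in WT replicate 1) per library.

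**Figure D1:**
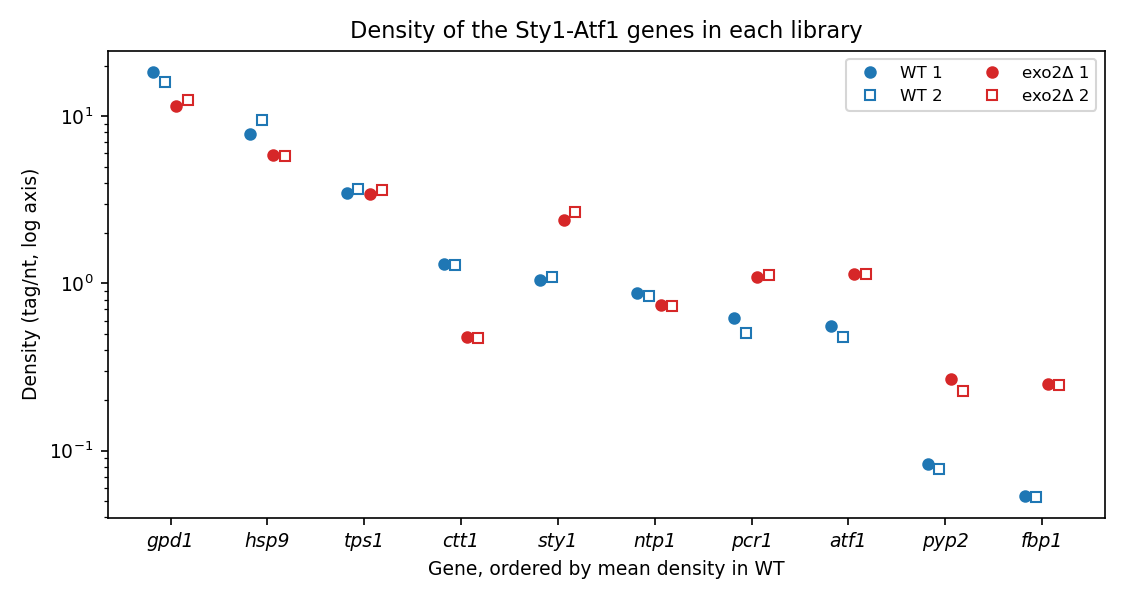
Density of the 10 genes in each of the 4 libraries (tag/nt on a log axis, 1 point per library, genes ordered by mean density in WT). The red points of ctt1 (0.477 and 0.475 tag/nt) lie well below its blue points (1.31 and 1.28 tag/nt), and tps1 is the gene whose 2 groups overlap.

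The kinase and its transcription factors were near the ratio of the median mRNA. sty1 (SPAC24B11.06c, chromosome I, 206476 to 208044, - strand), the MAP kinase gene, had densities of 1.05 and 1.10 in WT against 2.40 and 2.67 tag/nt under the exo2Δ label. The groups did not overlap, and the log2 ratio was 1.24 (SE 0.078), which is 0.16 above the median mRNA. atf1 (SPBC29B5.01, chromosome II, 1546194 to 1549862, + strand), which encodes the factor that Sty1 phosphorylates, had 0.561 and 0.481 in WT against 1.15 and 1.13 tag/nt. Its log2 ratio was 1.13 (SE 0.095), 0.05 above the median mRNA, with no overlap between the groups. pcr1 (SPAC21E11.03c, chromosome I, 4252142 to 4253622, - strand), the bZIP partner of Atf1, had 0.623 and 0.505 in WT against 1.10 and 1.12 tag/nt. The groups did not overlap either, and the log2 ratio of 0.98 (SE 0.11) was 0.10 lower than that of the median mRNA (a difference of -0.10). The median log2 ratio of these 3 genes was 1.13.

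pyp2 (SPAC19D5.01, chromosome I, 5202366 to 5205202, + strand) encodes a tyrosine phosphatase that inactivates Sty1 and is itself induced by stress. It was one of the lowest of the 10 genes in WT, with 0.0827 and 0.0772 tag/nt, against 0.267 and 0.228 tag/nt in the libraries labelled exo2Δ. The log2 ratio was 1.62 (SE 0.14), 0.54 above the median mRNA, and 81.3% of mRNAs had a lower ratio.

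ctt1 (SPCC757.07c, chromosome III, 56654 to 58865, - strand) encodes the catalase that breaks down hydrogen peroxide and is a widely used readout of Sty1 and Atf1. The WT libraries gave 1.31 and 1.28 tag/nt (3427 and 3145 reads), against 0.477 and 0.475 tag/nt (899 and 916 reads) under the exo2Δ label. Both libraries labelled exo2Δ were far below both WT libraries, and the replicates of each genotype lay close together (1.30 ± 0.0186 against 0.476 ± 0.00150 tag/nt, SD, n = 2 each). The level was 2.72-fold lower, with a log2 ratio of -1.44 (SE 0.074), and -2.53 relative to the median mRNA, or 5.76-fold below it. Of the 5079 mRNAs only 2 had a lower ratio. The rank of ctt1 among the 5129 mRNAs by mean density went from 1145 in WT to 3643 under the exo2Δ label. A factor common to both libraries of a genotype cannot move this rank. Within a library, the density of ctt1 was 2.33 and 2.66 times that of atf1 in WT and 0.416 and 0.418 times in the libraries labelled exo2Δ. The share of ctt1 reads outside its coding exon was between 13.7% and 15% in every library, and the coding exon alone gave a log2 ratio of -1.45.

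The other 4 stress effector genes had log2 ratios below 0 as well, but that of tps1 was near 0 and turned above it with the summed sn(o)RNA reads as the scale (0.05) and without WT replicate 2 (0.0149) or exo2Δ replicate 1 (0.0225). gpd1 (SPBC215.05, chromosome II, 4035580 to 4037342, + strand), the glycerol-3-phosphate dehydrogenase of the osmotic response, had 18.4 and 16.0 in WT against 11.6 and 12.5 tag/nt. hsp9 (SPAP8A3.04c, chromosome I, 5319957 to 5320676, - strand), a heat shock gene, had 7.85 and 9.52 tag/nt against 5.90 and 5.83 tag/nt. In both genes the libraries labelled exo2Δ lay below both WT libraries, at log2 ratios of -0.51 (SE 0.084) and -0.56 (SE 0.094), which are -1.59 and -1.64 relative to the median mRNA. tps1 (SPAC328.03, chromosome I, 3479098 to 3481305, + strand), which encodes the trehalose-6-phosphate synthase, had 3.50 and 3.68 in WT against 3.43 and 3.64 tag/nt. Its groups overlapped, and its log2 ratio of -0.02 (SE 0.065) was -1.10 relative to the median mRNA. ntp1 (SPBC660.07, chromosome II, 206580 to 209641, + strand), the neutral trehalase that degrades the sugar Tps1 helps to make, had 0.872 and 0.842 in WT against 0.740 and 0.732 tag/nt. The groups did not overlap, the log2 ratio was -0.22 (SE 0.074), and the gene moved from rank 1609 to rank 2991 of the mRNAs by density. All 5 genes grouped here as effectors, ctt1 included, were within the lowest 10% of mRNA ratios, and their median was -0.51. The group leaves out pyp2, also induced by stress, and fbp1, which depends on Atf1 and Pcr1. These had log2 ratios of 1.62 and 2.21. The 13 other stress-induced genes described below had a median of 1.23. As the genes were selected on this ratio, nothing is read from the place of the 5 genes among the mRNAs.

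fbp1 (SPBC1198.14c, chromosome II, 197660 to 199474, - strand) encodes fructose-1,6-bisphosphatase, an enzyme of gluconeogenesis that glucose represses and that depends on Atf1 and Pcr1 for its induction. It was the lowest of the 10 genes in WT, at 0.0540 and 0.0532 tag/nt (116 and 107 reads), against 0.252 and 0.246 tag/nt (389 and 389 reads) in the libraries labelled exo2Δ. The level was 4.64-fold higher, with a log2 ratio of 2.21 (SE 0.14), 1.13 above the median mRNA, and 94.6% of mRNAs had a lower ratio. The density of fbp1 was 0.0413 and 0.0415 times that of ctt1 in the WT libraries and 0.527 and 0.518 times in the libraries labelled exo2Δ.

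A gene passed as higher or lower where its ratio lay beyond 2 or 0.5 and its limma adjusted p was below 0.05. By this rule 4 of the 10 genes passed as higher (sty1, atf1, pyp2 and fbp1), 1 as lower (ctt1), and 5 did not pass. Of all mRNAs tested, 54.8% passed as higher and 0.276% as lower. The libraries labelled exo2Δ lay without overlap above those of WT for 5 of the 10 genes, and below for 4, against 91.1% and 5.43% of mRNAs. These counts repeat the ratio on which the genes were selected, and nothing is read from them. The median log2 ratio of the 10 genes was 0.48, beside 1.08 for all mRNAs, and 6 of them were below the latter.

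The ratio of an mRNA was also related to its level in WT. Across the 5079 mRNAs, Spearman's coefficient between WT density and log2 ratio was -0.44, a description over genes of the same 4 libraries in which the WT density enters both measures. The decile of mRNAs with the highest WT density, which holds gpd1 and hsp9, had a median log2 ratio of 0.15, and these genes were 0.67 and 0.71 below it (differences of -0.67 and -0.71). In the decile that holds tps1 the median was 0.79, a difference of -0.81 for tps1, and in that of ntp1 it was 1.07, a difference of -1.29. ctt1 had the lowest ratio of the 508 mRNAs in its decile, where the median was 1.00 and sty1, of the same decile, was 0.24 above it. gpd1 and hsp9, by contrast, had 13.6% and 11.4% of the mRNAs of their decile below them. pyp2 and fbp1 were in the 2 lowest deciles, with medians of 1.30 and 1.57, and exceeded them by 0.32 and 0.64. Both lay below the upper quartiles of their deciles (1.68 and 2.26), with 70.1% and 73.0% of the mRNAs of their decile below them.

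**Figure D2:**
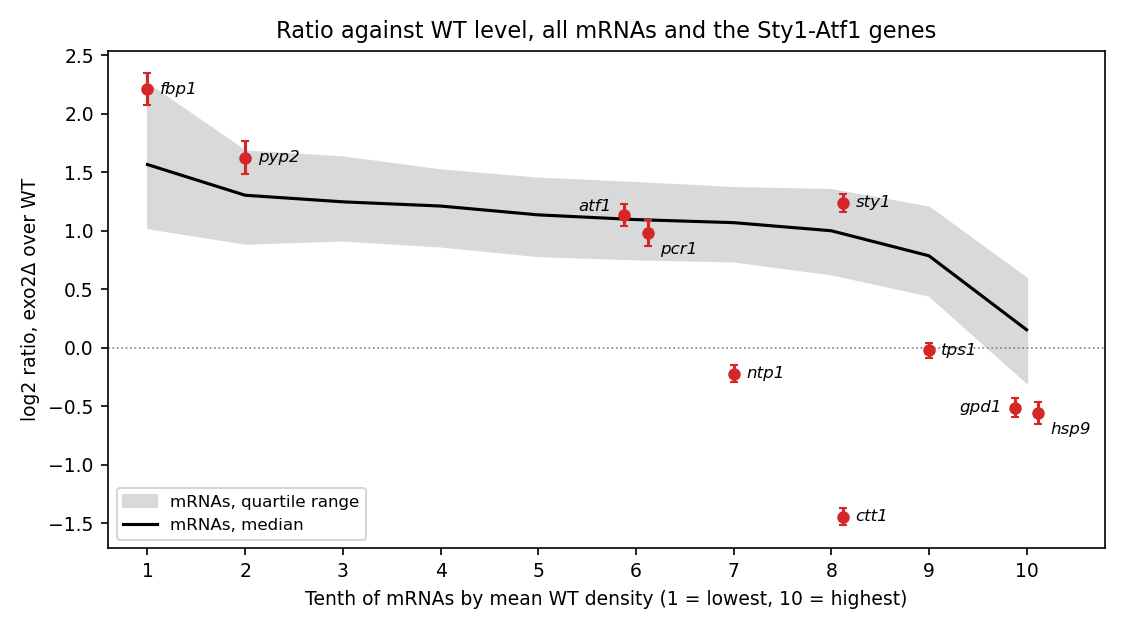
Log2 ratio of exo2Δ over WT (y axis) against the decile of mRNAs by WT density (x axis, 1 lowest and 10 highest). The line is the median of all mRNAs in a decile and the band its quartiles, and red points are the 10 genes with their standard errors; ctt1 at -1.44 is the farthest from the line.

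The scale decides the sign of several of these ratios. Scaled by the median of ratios over all features, the median mRNA had a log2 ratio of -0.12, and sty1, atf1 and pcr1 had 0.04, -0.07 and -0.22. On that scale fbp1 was still higher at 1.01 and pyp2 had 0.42. ctt1 had -2.65 and the other 4 effectors lay between -1.76 and -1.23, so that 5 of the 10 genes passed the threshold as lower and 1 as higher, where 10.1% of mRNAs passed as lower and 4.92% as higher. Without the ratio threshold, an adjusted p under 0.05 was reached on that scale by 40.6% of mRNAs as lower and by 24% as higher.

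**Figure D3:**
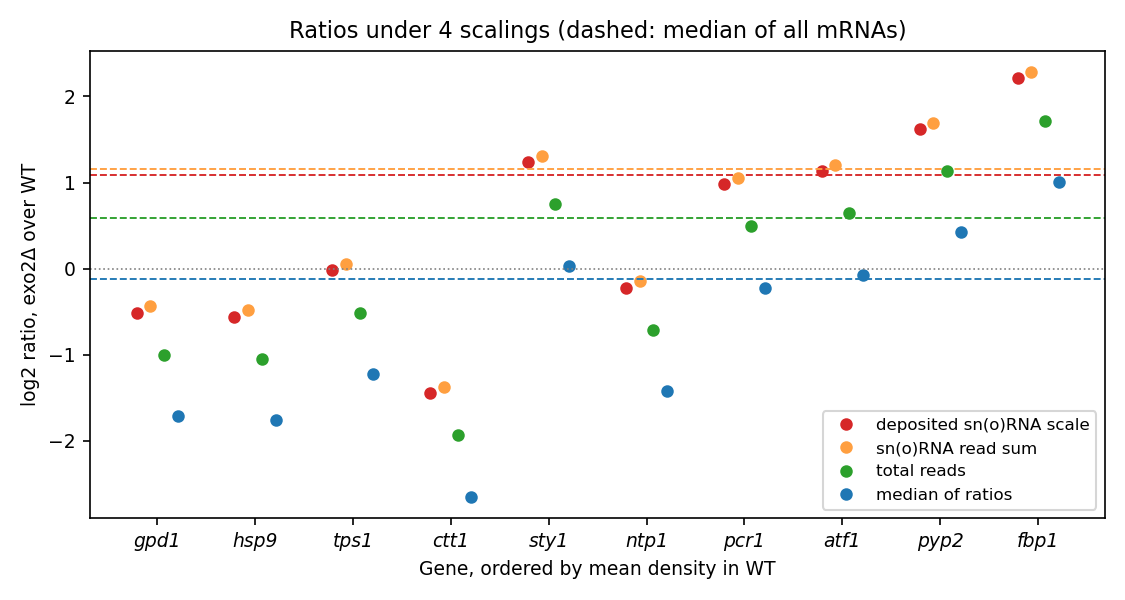
Log2 ratio of exo2Δ over WT for each gene under 4 scalings of the libraries (1 point per scaling, genes ordered by WT density), with the median of all mRNAs under each scaling as a dashed line. The points of a gene shift together with the line, and ctt1 is the lowest under all 4 scalings, from -1.37 with the sum of sn(o)RNA reads to -2.65 with the median of ratios.

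Antisense XUTs (asXUTs), transcribed across 50 nt or more of the opposite strand, overlapped 2 of the 10 genes, ctt1 and fbp1, while 1086 of 5129 protein-coding genes (21.2%) had one. The authors defined XUTs by their increase in these libraries, so that the ratios of XUTs are a description. XUT0794 (chromosome III, 57000 to 57814, + strand, 815 nt) lies entirely within the coding exon of ctt1. It had 3 and 1 reads in the WT libraries and 93 and 113 reads in the libraries labelled exo2Δ. Pooled by genotype and corrected for the library scales, these reads gave a ratio of 68.5. Its exact 95% counting interval, from 26.4 to 254, covers counting error only. The density of XUT0794 was thereby 0.238% and 0.0863% of that of ctt1 in WT, and 28.1% and 33.5% in the libraries labelled exo2Δ. The 2 genes with an asXUT were those with the lowest ratio (ctt1) and the highest ratio (fbp1) of the 10. A link between asXUT and ratio was not tested here. In the paper, strand-specific RT-qPCR on several other asXUT and mRNA pairs found no link between asXUT stabilization in exo2Δ and lower sense mRNA. The paper adds that the general rise of mRNAs without Exo2 hides a possible effect of asXUTs.

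XUT0978 (chromosome II, 197589 to 200911, + strand) covers the whole of fbp1 and extends beyond both of its ends. Its reads were 90 and 106 in WT, against 340 and 338 under the exo2Δ label, a log2 ratio of 2.2 beside 2.21 for the mRNA. The density of XUT0978 was therefore a similar share of that of fbp1 in both genotypes, 42.4% and 54.1% in WT against 47.7% and 47.5%. The annotated lncRNA SPNCRNA.1324 spans the same stretch and shares its reads, with 1 to 3 reads per library outside the XUT. On the strand of fbp1, the lncRNA SPNCRNA.1325 (chromosome II, 199409 to 200559) ends 66 nt inside the gene, in the region upstream of fbp1 where such transcripts are known to precede its induction. It had 52 and 55 reads in WT, against 158 and 167 under the exo2Δ label, and it rose by a log2 ratio of 2.01 (SE 0.16, limma adjusted p = 2.57e-05).

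At sty1, the annotated antisense lncRNA SPNCRNA.622 (chromosome I, 206775 to 209401, + strand) overlaps 1270 nt of the gene and had 102 and 125 reads in WT, against 672 and 723 under the exo2Δ label. Nearly all of these reads belong to XUT1292 (chromosome I, 208299 to 209124), named here after its values were seen, which begins 255 nt upstream of the sty1 start and runs away from the gene. Outside XUT1292, SPNCRNA.622 kept 12 and 8 reads in WT, against 19 and 22 under the exo2Δ label. The reads gained thus lay mostly in a transcript divergent from sty1, upstream of its body.

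**Figure D4:**
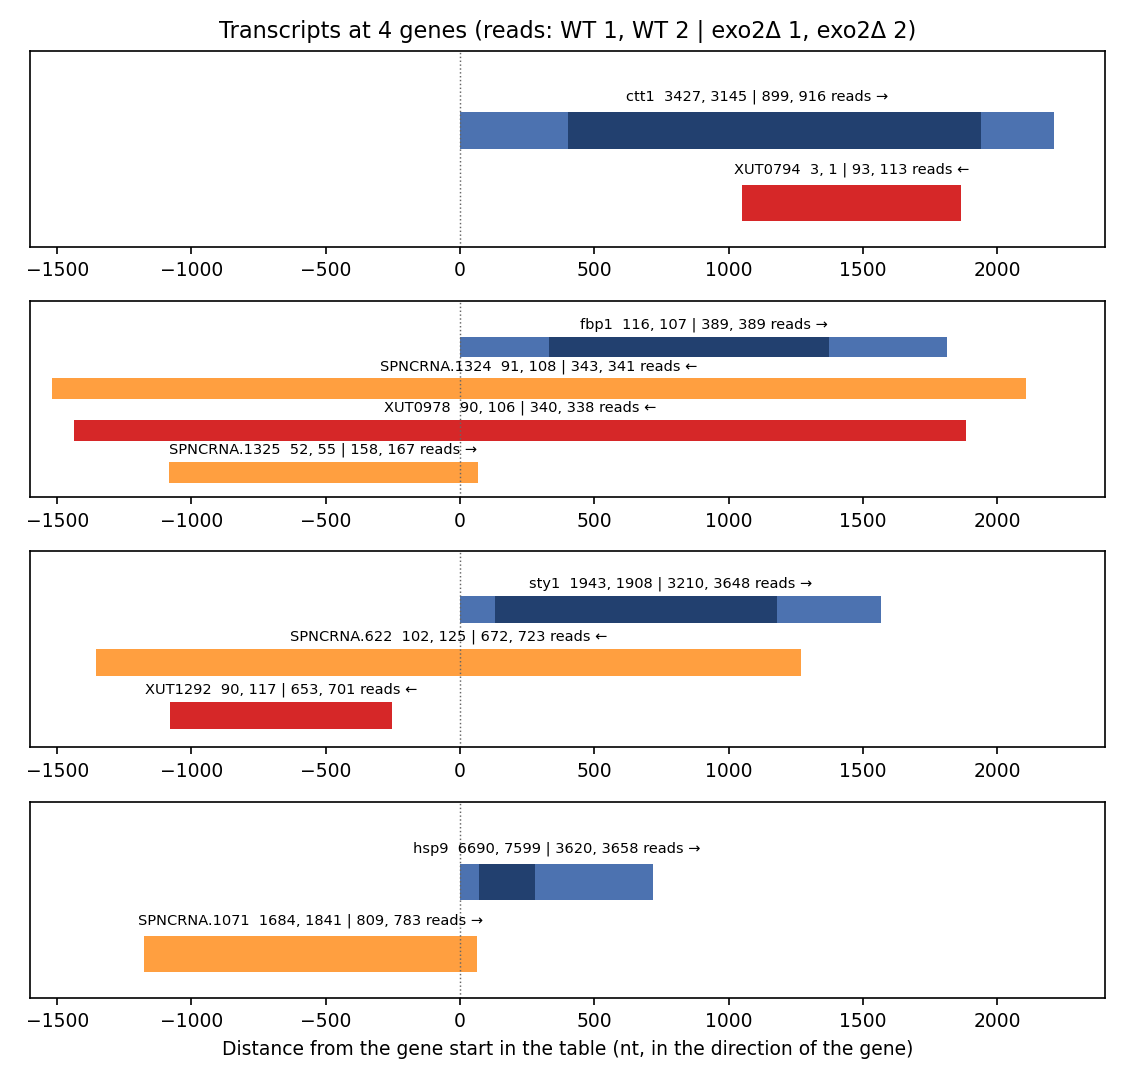
Transcripts at ctt1, fbp1, sty1 and hsp9, drawn to scale as distance in nt from the gene's start in the table (x axis), with the gene in blue (coding part dark), XUTs in red and annotated lncRNAs in orange; arrows give direction and the numbers are reads in WT 1 and 2 and exo2Δ 1 and 2. XUT0794 with 3 and 1 against 93 and 113 reads lies inside ctt1, XUT0978 covers fbp1, and XUT1292 points away from sty1.

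The remaining overlaps involved annotated lncRNAs and neighbouring mRNAs. Upstream of hsp9, SPNCRNA.1071 (chromosome I, 5320613 to 5321854, - strand) runs on the same strand and shares 64 nt with the gene. It had 1684 and 1841 reads in WT, against 809 and 783 under the exo2Δ label, so that, as for hsp9, both of the latter were lower. Its log2 ratio was -0.73 (SE 0.095, limma adjusted p = 2.57e-04), which did not reach the ratio of 0.5. Reads of the 64 nt that both share may count for both, and the part of this in either ratio was not tested. Of 1794 annotated lncRNAs tested, 50.1% passed as higher and 3.18% as lower. SPNCRNA.1441, on the strand of atf1 with 61 nt in common, had a log2 ratio of 0.85 (adjusted p = 0.00147, limma), and did not pass the ratio of 2 either. SPNCRNA.1327, antisense to the first 331 nt of ntp1, had 154 and 136 reads in WT against 152 and 141, with a log2 ratio of 0.43 (adjusted p = 0.0262, limma) that became -0.78 with the median of ratios. At tps1, the upstream gene SPAC328.02 on the same strand overlaps 63 nt and had a log2 ratio of 1.34, while tps1 had -0.02. At pyp2, the convergent gene SPAC19D5.02c overlaps 48 nt and had a log2 ratio of 1.09. No XUT or annotated lncRNA overlapped pcr1 or gpd1 by these limits.

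Another 47 genes tied to the pathway were examined in 4 groups. This list was also drawn up with earlier results of these libraries known, so that its p-values, adjusted over all features, are not independent evidence. In all, 22 passed as higher (46.8%, beside 54.8% of mRNAs), with log2 ratios from 1.08 to 2.71 and adjusted p from 2.31e-06 to 4.44e-04 (limma). For each of these 22, both libraries labelled exo2Δ were above both WT libraries. None passed as lower by limma on densities or on recovered reads (voom), and 3 of the 4 genes with a log2 ratio below 0 had a p under 0.05, both unadjusted and adjusted, with ratios that did not reach 0.5. Their median log2 ratio was 0.95, below the 1.08 of all mRNAs. Scaled by the median of ratios, 2 of the 47 passed as higher and 6 as lower, beside 4.92% and 10.1% of mRNAs. By adjusted p alone, 9 were then higher and 20 lower, beside 24% and 40.6% of mRNAs.

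The cascade group held 16 genes, from the sensor kinases to Wis1, the phosphatases and their partners. Of these, 7 passed as higher (43.8%, beside 54.8% of mRNAs) and none as lower. ptc2, a type 2C phosphatase that acts on the pathway, had 1.14 and 1.12 in WT against 3.86 and 4.13 tag/nt (log2 ratio 1.82, SE 0.067). The annotated lncRNA SPNCRNA.586, named here after its values were seen, lies on the same strand inside ptc2. It held 1381 and 1326 reads beside 4008 and 3710 for ptc2 in WT. Under the exo2Δ label it held 4422 and 4758 beside 9784 and 10723. The part of this in the ratio of ptc2 was not tested. wis1, the MAP kinase kinase, and win1, a kinase above it, rose by log2 ratios of 1.44 and 1.44. tdh1, a glyceraldehyde-3-phosphate dehydrogenase that binds the response regulator Mcs4, had 130.8 and 125.0 in WT against 81.1 and 75.9 tag/nt. Its log2 ratio of -0.70 (SE 0.073, limma adjusted p = 8.12e-05) did not reach the ratio of 0.5. Of the 9 downstream kinases, transcription factors and RNA-binding proteins, 2 passed as higher (22.2%, beside 54.8% of mRNAs). These were atf31 (log2 ratio 1.38), a bZIP gene, and cip2 (1.08), which encodes an RNA-binding protein tied to the atf1 mRNA. The ratio of cip2 was that of the median mRNA. rsv1 had between 0 and 5 reads in a library and atf21 between 7 and 11, so that no change was detectable at this depth.

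Of the 13 other stress-induced genes, 7 passed as higher (53.8%, beside 54.8% of mRNAs). The highest were lsd90 (0.0361 and 0.0326 in WT against 0.201 and 0.184 tag/nt, log2 ratio 2.48), zym1, a metallothionein gene (2.13), and hsp16, a small heat shock gene (0.879 and 1.09 tag/nt against 4.37 and 3.71 tag/nt, log2 ratio 2.04). Among the heat shock genes, hsp16 was 0.96 above the median mRNA, while hsp20, hsp104 and hsp9 were below it (differences of -0.43, -1.48 and -1.64). plr1, a pyridoxal reductase gene, and hsp104, the gene of a protein disaggregase, had log2 ratios of -0.49 and -0.39 (adjusted p = 1.98e-04 and 0.00311, limma), without reaching the ratio of 0.5. dak2, a dihydroxyacetone kinase gene, had -0.07 (adjusted p = 0.63, limma).

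Of the 9 genes of glucose and cAMP signalling, which govern the repression of fbp1, 6 passed as higher (66.7%, beside 54.8% of mRNAs). scr1, the zinc-finger repressor of fbp1, had 54 and 59 reads in WT, against 281 and 279 under the exo2Δ label (log2 ratio 2.71, SE 0.24), and of these XUT1071, named here after its values were seen, on the same strand inside the gene holds 18 and 16, and 129 and 129 reads. pka1, the catalytic subunit of protein kinase A, and cgs2, the cAMP phosphodiesterase, rose by 1.57 and 1.49. tup11 and tup12, which encode corepressors of fbp1, had log2 ratios of 0.67 and 0.82 and did not pass the ratio of 2.

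asXUTs overlapped 9 of the 47 genes (mpr1, ptc4, srk1, atf21, cta3, hsp16, hsp104, ish1 and lsd90), beside 21.2% of all genes. Of these 9, 3 (cta3, hsp16 and lsd90) were among the genes that passed as higher, beside 54.8% of mRNAs. Log2 ratios of mpr1, ptc4, srk1 and ish1 lay between 0.71 and 0.87, that of cta3 was 1.56, and that of hsp104 was -0.39. Whether the ratios of these genes are linked to their asXUTs was not tested.

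**Figure D5:**
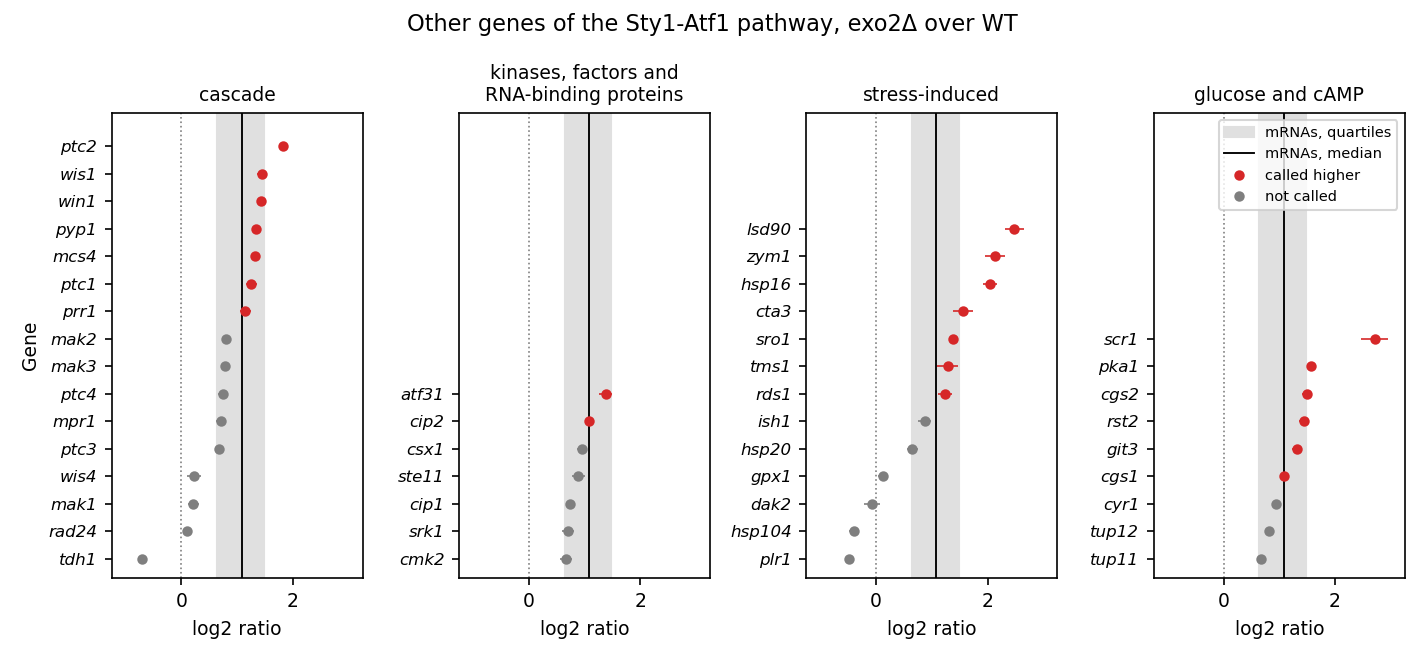
Log2 ratio of exo2Δ over WT (x axis, points with standard errors) for the other pathway genes with a mean of at least 50 reads per library, in 4 groups; the line and band are the median (1.08) and quartiles of all mRNAs. Red points passed as higher, most points lie within or beside the band, and tdh1 (-0.70), plr1 (-0.49) and hsp104 (-0.39) lie left of 0.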

How the data were processed

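Total RNA was measured in 2 WT and 2 exo2Δ libraries, grouped by the strain labels. Per the labels and methods, rRNA was depleted, stranded libraries were prepared from 125 ng of RNA, and paired reads of 50 nt were mapped with TopHat on ASM294v2; the counting tool is not given in the sources used here. The authors deposited the signal as a density (tag/nt), reads over feature length normalized on sn(o)RNA levels. Their summed columns were not used. The product of density and length equalled whole steps, 1 step size per library, for 100% of values (tolerance 0.01 reads), which gave the reads.

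Log2(density + 1.55e-04), the pseudocount being 0.5 times the smallest density, was fitted with limma 3.58.1 (R 4.3.3, trended moderation) for the 8826 of 9139 features with at least 10 reads in all. Benjamini-Hochberg adjustment ran over all of these. A feature passed where its ratio lay beyond 2 or 0.5 and its adjusted p was below 0.05. With 2 libraries per genotype, an exact permutation test of 1 gene cannot pass 0.05. The test was checked on simulated data.

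The members and lists were chosen with earlier results of these data known. Named were all 10 genes, the XUTs and lncRNAs overlapping them (antisense at least 50 nt, same strand at least 1 nt), overlapping mRNAs, up to 3 called genes per group and direction of the wider list with at least 50 reads per library on average and no overlap of libraries, and those with an asXUT. rsv1, tdh1, plr1, dak2, hsp20, tup11 and tup12 were named after their values were seen. Sequences are from RefSeq, where the coding coordinates of 10 of the 10 genes equal those of the table. Alternatives covered the scaling, pseudocount, filter, recovered reads (voom), replicate block, overlap limit, coding exons and leaving out each library. Python 3.11.15, pandas 2.3.3, numpy 2.4.6, scipy 1.17.1 and matplotlib 3.10.9 were used.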

Additional observations from a re-analysis of the deposited data

How the results depend on the processing

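The number of the 10 genes past the threshold depended on the scaling. With the median of ratios, 1 was higher and 5 were lower, and with total reads 2 were higher and 3 lower, where 24.1% of mRNAs were higher and 1.83% lower. The median of ratios with no ratio threshold, chosen after seeing the data, also gave 1 higher and 5 lower. Of the 47 wider genes, 2 were then higher and 6 lower with the median of ratios, and 8 higher and 1 lower with total reads. With the median of ratios, the log2 ratio of atf1, which had passed, turned to -0.0701, and that of pcr1, which had not passed, to -0.22. The log2 ratio of tps1, which had not passed either, turned to 0.05 with the sum of sn(o)RNA reads. These scalings put the median mRNA at another ratio by construction. Leaving out 1 library in turn leaves 1 library in a genotype, so that only effect sizes are given for these fits. The 10 genes' log2 ratios without a library ran from -1.46 to -1.43 for ctt1 and from 2.19 to 2.23 for fbp1.

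The deviations of same-numbered replicates correlated at 0.283 over 5447 features, but there are only 2 pairs and the labels do not say what a number marks, so that the libraries share only a number. With the replicate block the counts were 4 higher and 1 lower of the 10 genes and 22 higher and 0 lower of the wider genes. Among all mRNAs, 2776 were then higher and 14 lower, beside 2782 and 14 without it. With voom on recovered reads, 2804 mRNAs were higher and 13 lower. The overlap limits of 1 and 200 nt gave the same 2 genes with an asXUT. The pseudocount, the filters and the sum of sn(o)RNA reads changed no count of the 10 genes by over 1.5 times. Depth limits rsv1, atf21 and XUT0794 in WT.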
